A study of Mus musculus with 16 samples.

Results

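Nephron segment identity genes are genes whose transcripts mark one stretch of the renal tubule. A list of 37 such genes was followed in whole kidney of NiPKO and control mice, with 17 genes of the proximal tubule, 6 of the thick ascending limb, 5 of the distal convoluted tubule and 9 of the collecting duct. Each gene was read from its brightest probe set that names this gene alone, which gave 36 of the 37 among 22180 genes on the array. The exception was Ggt1, a gamma-glutamyltransferase of the brush border, for which no such probe set was found and no value is given. Total kidney RNA was measured on 16 Affymetrix mouse gene arrays, 4 each for HFD-fed NiPKO, chow-fed NiPKO, HFD-fed control and chow-fed control mice. NiPKO mice carried the transgenes Pax8-rtTA and (tetO-cre)-LC1 together with PGC-1α fl/fl alleles, so that DOX turns on Cre where the Pax8 promoter is active. All animals were males, and the controls were littermates whose alleles are not spelled out in the sources used here. The methods describe DOX at 0.2 mg/ml with sucrose in the drinking water for 2 weeks from 12 weeks of age, given to induce the deletion, and do not state whether the controls received it. The HFD held 60 kcal% fat and was fed for 20 weeks, against 10 kcal% fat in chow. The model has limits that bear on these genes: the deletion covers the whole tubule and spares the glomerulus, some recombination also takes place in liver, and the transgenes came from a mixed background while the floxed mice were C57BL/6.

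Filtrate passes first through the proximal tubule, which takes back most of the filtered solutes, proteins and water with the help of a dense brush border and many mitochondria. The thick ascending limb then reabsorbs salt without water, the distal convoluted tubule adjusts sodium, calcium and magnesium, and the collecting duct sets the final water, potassium and acid content of the urine through principal and intercalated cells. PGC-1α is a coactivator of genes of mitochondrial energy metabolism, on which all of these segments draw. Several listed genes are not exclusive to 1 segment. Aqp1 also marks the descending thin limb, Klk1 the connecting tubule and Muc1 the distal tubule, Cldn10, Egf, Kcnj1 and Fxyd2 reach into neighbouring segments, and Foxi1 and Aqp6 belong to intercalated rather than principal cells.

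The values are log2 signals that the authors had already normalized, so a difference of 1 stands for a 2-fold change, and they allow a gene to be compared between arrays but not 1 gene with another. The array medians lay between 5.35 and 5.4, and any 2 arrays correlated at 0.986 to 0.992 over all probe sets, so no array stood apart. The samples are labelled as biological replicates, but nothing ties an array to an animal, so p-values reflect only the spread among arrays within groups. In the limma fit this spread is pooled over the 4 groups and drawn toward that of all genes. The probe set of Ppargc1a, the deleted gene, read 9.96 to 10.07 in HFD-fed NiPKO, 9.91 to 10.18 in chow-fed NiPKO, 9.32 to 9.57 in HFD-fed control and 9.56 to 9.68 in chow-fed control mice. It was thus higher in NiPKO kidneys, and since it is not known here which of its probes lie in the floxed exons, it does not check the genotype labels. The kidney origin of the samples was borne out by bright segment markers on every array, such as uromodulin (Umod) at 12.64 to 12.91 and the kidney androgen-regulated protein (Kap) at 12.73 to 13. In RNA of a whole organ, fewer cells of a segment cannot be told apart from less RNA per cell.

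Few segment identity genes were called between the genotypes, and the 2 that were are both collecting duct members in chow-fed mice. Aqp3, a basolateral water channel, fell and the transmembrane mucin Muc1 rose in chow-fed NiPKO relative to chow-fed control mice at an adjusted p under 0.05 (limma, with adjustment over all genes), which is 2 of 36 members, against 1.28% of all genes. The members were chosen with earlier results known, among them the value of Muc1, so this comparison is no test of the list. None of the 36 was called between HFD-fed NiPKO and HFD-fed control mice, where 0.825% of all genes were, and the methods' t-test, adjusted, also gave 0. There, 7 members had an unadjusted p under 0.05 in limma, but the share of all genes at that p is not given here. At the looser thresholds of the methods, which ask for a fold change over 1.2 and an unadjusted p under 0.05, 3 of 36 members passed on chow, against 4.42% of all genes, and 3 of 36 passed on HFD, all higher in NiPKO mice, against 1.93% of all genes higher. Leaving out 1 array made these counts 1 without chow control replicate 3 and 9 without HFD control replicate 1. The typical size of a genotype difference was also that of other genes. On HFD the median size over the members was 0.07 on the log2 scale, against 0.071 over all genes, and on chow it was 0.077, against 0.075. For 19 members on HFD (52.8%) and 20 on chow (55.6%) the 95% confidence interval lay wholly within a 1.2-fold change in either direction, against 52.2% and 50.1% of all genes.

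**Figure D1:**
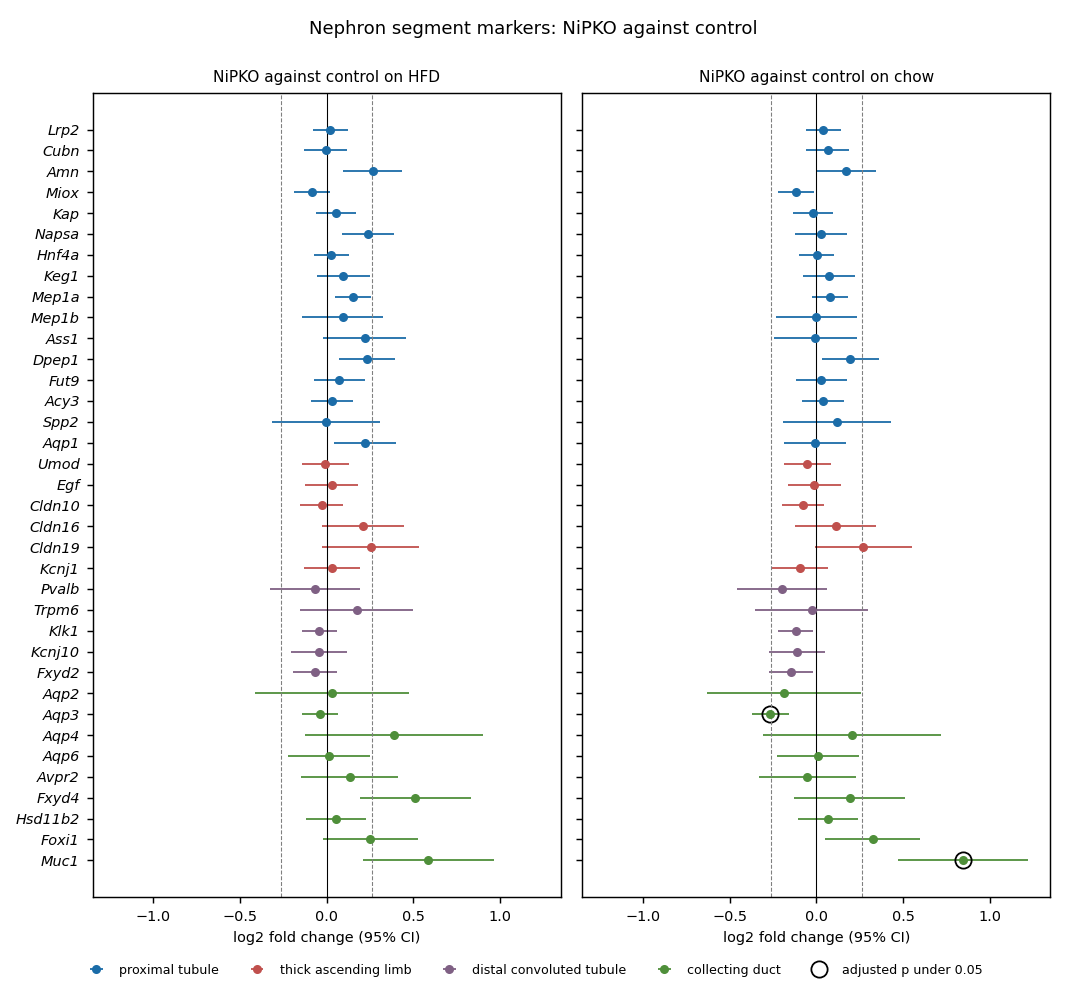
Log2 fold change of NiPKO over control for the 36 measured segment genes, on HFD (left) and on chow (right), with 95% confidence intervals from limma; colours give the segment and dashed lines a 1.2-fold change. Most points lie between the dashed lines, and the ringed points at an adjusted p under 0.05 are Aqp3 (-0.26) and Muc1 (0.85) on chow.

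With diet, more segment genes passed the methods' thresholds in control mice than in NiPKO mice, and 1 was called after adjustment. Of the 36 members, only Aqp3 passed an adjusted p under 0.05 between HFD-fed and chow-fed control mice, where it fell, against 0.564% of all genes. At the methods' thresholds 5 members were lower on HFD in control mice, against 2.34% of all genes lower, and 3 were higher, against 2.3%; the total of 8 became 5 without chow control replicate 3 or HFD control replicate 2. Between HFD-fed and chow-fed NiPKO mice no member was called after adjustment, against 0.261% of all genes, and the methods' t-test, adjusted, gave 0. There, 5 members had an unadjusted p under 0.05 in limma, without a share of all genes to set beside them. At the methods' thresholds 3 passed, against 4.47% of all genes (5 without chow NiPKO replicate 1). The median size of the diet difference over the members was 0.074 in NiPKO mice, against 0.077 over all genes, and 0.112 in control mice, against 0.076. The confidence interval lay within a 1.2-fold change for 19 members in NiPKO mice (52.8%, against 49.3% of all genes) and for 15 in control mice (41.7%, against 50% of all genes). The interaction tests the gap between the diet differences of NiPKO and control mice. It called none of the members (limma) and 0% of all genes, with no other tool run. Of the members, 2 had an unadjusted p under 0.05, again without a share of all genes. At the methods' thresholds 0 of 36 passed, against 5.74% of all genes.

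**Figure D2:**
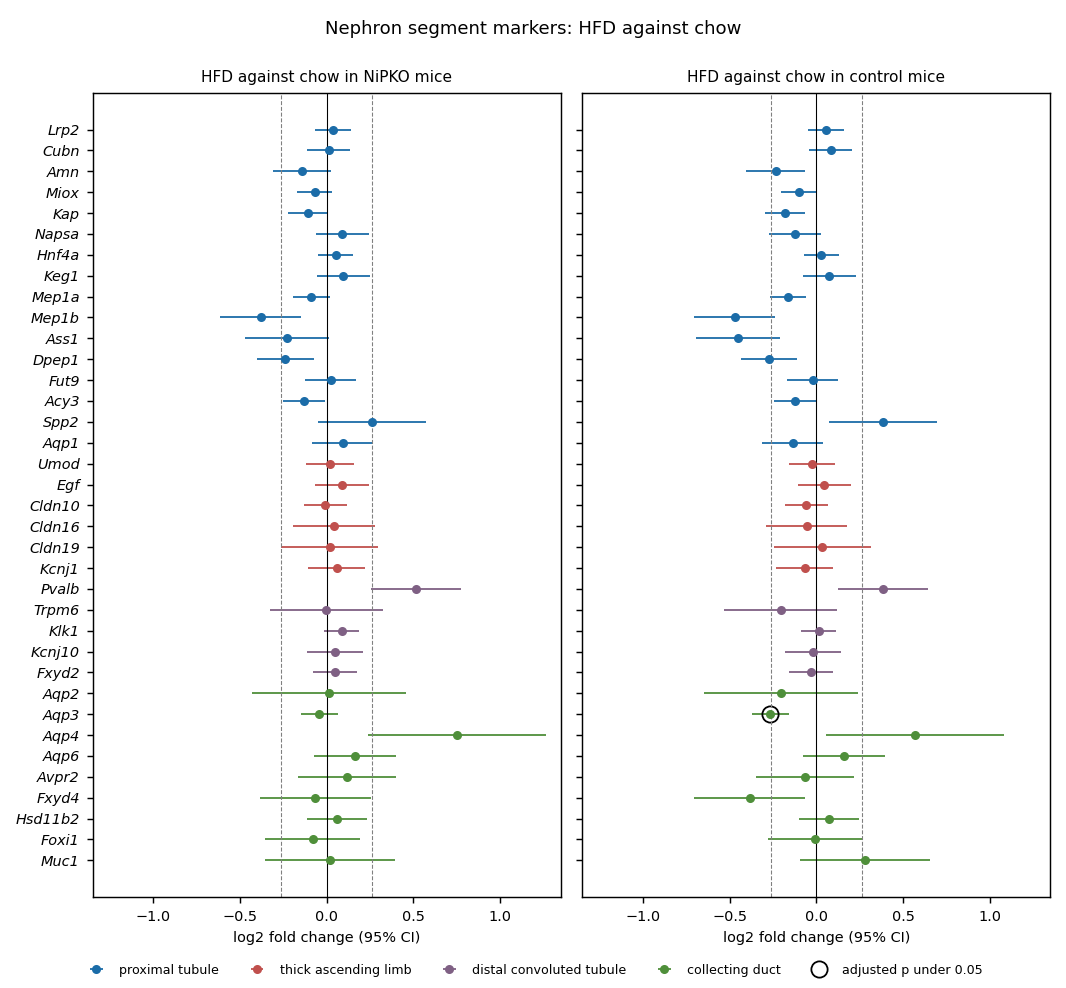
Log2 fold change of HFD over chow for the 36 measured segment genes, in NiPKO mice (left) and in control mice (right), with 95% confidence intervals from limma; colours give the segment and dashed lines a 1.2-fold change. Aqp3 in control mice (-0.27) is the ringed point at an adjusted p under 0.05, and Aqp4 lies farthest to the right in both panels, at 0.75 and 0.57.

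No proximal tubule gene of the 16 was called between the genotypes after adjustment. Their median log2 fold change between NiPKO and control mice was 0.083 on HFD, with 13 of 16 above 0, and 0.033 on chow, with 11 of 16 above 0, while the median of all genes was 0.002 and 0.007. The 31 further proximal tubule genes measured, none of them members, had medians of 0.013 on HFD and 0.02 on chow. Their values on HFD ran from -0.37 to 0.27. The endocytic receptor genes megalin (Lrp2) and cubilin (Cubn) and the nuclear receptor Hnf4a, a regulator of proximal tubule identity, were among the steadiest of the 16 members. Lrp2 ranged from 12.54 to 12.62 in HFD-fed NiPKO and from 12.5 to 12.6 in HFD-fed control mice, and its log2 fold change was 0.02 (95% CI -0.081 to 0.125). Hnf4a read 11.37, 11.39, 11.34 and 11.36 in HFD-fed NiPKO mice, against 11.36, 11.31, 11.32 and 11.36 in HFD-fed control mice, a log2 fold change of 0.03 (95% CI -0.074 to 0.129). Amnionless (Amn), which anchors cubilin in the membrane, passed the methods' thresholds on HFD. Its values were 8.7, 9.09, 8.7 and 8.81 in HFD-fed NiPKO mice, against 8.55, 8.45, 8.71 and 8.53 in HFD-fed control mice, so that the groups overlapped, with a log2 fold change of 0.27 ± 0.08 (SE) and an adjusted p of 0.18. The aspartic protease napsin A (Napsa) averaged 12.29 ± 0.1 in HFD-fed NiPKO and 12.05 ± 0.09 in HFD-fed control mice (SD, n = 4 each), with an adjusted p of 0.17. Meprin α (Mep1a), the partner subunit of meprin β, had a log2 fold change of 0.15 on HFD (95% CI 0.048 to 0.258, adjusted p of 0.23) and the water channel Aqp1 0.22 (95% CI 0.045 to 0.399, adjusted p of 0.31). Dpep1 was at 0.23 on HFD (95% CI 0.069 to 0.393, adjusted p of 0.24). On chow it was at 0.2 (95% CI 0.034 to 0.359, adjusted p of 0.28). Also on chow, Amn was at 0.17 (95% CI 0.003 to 0.342, adjusted p of 0.39). Miox went the other way there, at -0.12 (95% CI -0.219 to -0.016, adjusted p of 0.31). The fucosyltransferase Fut9 (-0.074 to 0.222 on HFD, -0.12 to 0.177 on chow) and the aminoacylase Acy3 (-0.088 to 0.155 on HFD, -0.085 to 0.158 on chow) had intervals within a 1.2-fold change, as did Miox and Kap.

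No proximal tubule gene was called between the diets after adjustment. The median log2 fold change of the 16 genes was -0.12 in control mice, with 11 of 16 below 0, and -0.03 in NiPKO mice, with 8 of 16 below 0. The 31 further proximal tubule genes measured had medians of -0.002 in control mice and -0.04 in NiPKO mice. In control mice Lrp2, Cubn, Hnf4a, Keg1 and Spp2 were the 5 members above 0, and the 3 lower at the methods' thresholds were Mep1b, Ass1 and Dpep1. Meprin β (Mep1b), a metalloprotease of the brush border, read 9.85, 9.44, 9.28 and 9.67 in HFD-fed control mice, against 9.97, 9.91, 10.14 and 10.1 in chow-fed control mice. In NiPKO mice it read 9.74, 9.75, 9.69 and 9.43 on HFD, against 10.14, 10.12, 9.85 and 10.01 on chow. Every HFD value thus lay below every chow value within each genotype. The log2 fold change was -0.38 ± 0.11 in NiPKO mice (SE, adjusted p of 0.14) and -0.47 ± 0.11 in control mice (adjusted p of 0.072, between 0.026 and 0.2 when single arrays were left out, with 0.026 without HFD control replicate 1).

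Argininosuccinate synthase (Ass1), an enzyme of arginine synthesis, read 7.26, 6.98, 7.12 and 7.6 in HFD-fed control mice, against 7.66, 7.78, 7.73 and 7.59 in chow-fed control mice. In NiPKO mice it read 7.49, 7.54, 7.44 and 7.36 on HFD, against 7.55, 7.88, 7.83 and 7.48 on chow. HFD control replicate 4 alone reached into the chow-fed controls. The log2 fold change was -0.23 ± 0.11 in NiPKO mice (SE, adjusted p of 0.41) and -0.45 ± 0.11 in control mice (adjusted p of 0.088, and 0.016 without HFD control replicate 4). The membrane dipeptidase Dpep1 read 11.14, 10.89, 10.99 and 10.99 in HFD-fed control mice, against 11.28, 11.31, 11.22 and 11.29 in chow-fed control mice. In NiPKO mice it read 11.3, 11.43, 11.03 and 11.18 on HFD, against 11.39, 11.44, 11.52 and 11.53 on chow. The log2 fold change was -0.24 ± 0.08 in NiPKO mice (SE, adjusted p of 0.18), where the groups overlapped, and -0.27 ± 0.08 in control mice (adjusted p of 0.13), where they did not. Going the other way in control mice, the secreted phosphoprotein gene Spp2 averaged 9.24 ± 0.25 on HFD and 8.85 ± 0.33 on chow (SD, n = 4 each), with overlapping groups and an adjusted p of 0.27. The kidney-enriched gene Keg1 had a second and dimmer probe set that gave 0.35 in place of 0.1 for the genotype difference on HFD and 0.53 in place of 0.07 on chow, so its value depends on the probe set chosen.

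**Figure D3:**
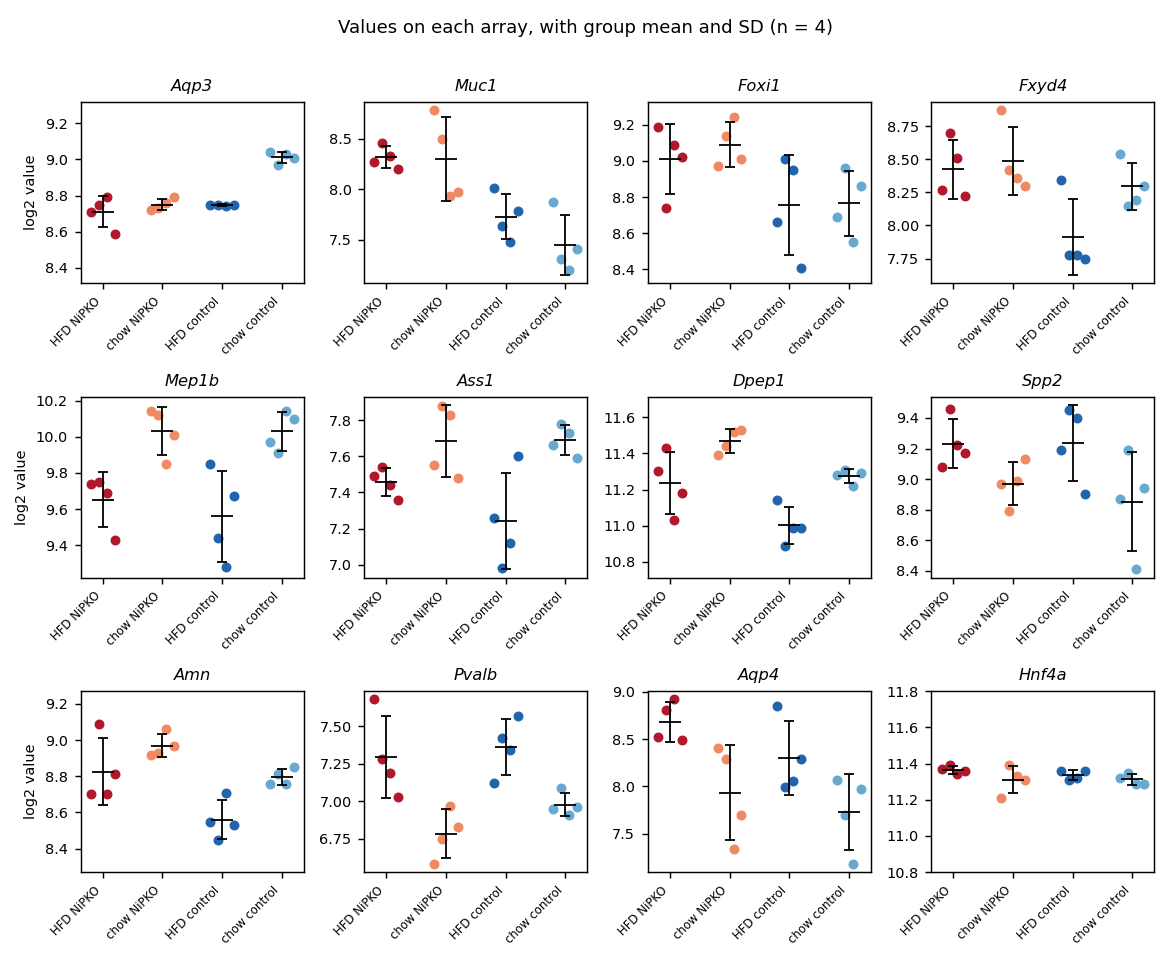
Log2 value on each array for the 11 segment genes past the methods' thresholds in any comparison of 2 groups, and for Hnf4a as a steady gene, with the mean and SD of each group (n = 4). Aqp3 lies between 8.97 and 9.04 in chow-fed controls and at 8.79 or below in the other groups, while Muc1 is at or above 7.93 in both NiPKO groups.

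All 6 thick ascending limb genes were without a call in every comparison and none passed the methods' thresholds. The median of the 6 genes between NiPKO and control mice was 0.03 on HFD and -0.03 on chow, and between HFD and chow 0.03 in NiPKO mice and -0.04 in control mice. These medians have no settled sign, since with single arrays left out they ran from 0 to 0.073, -0.05 to 0.007, -0.025 to 0.065 and -0.07 to 0.021 in the same order. Umod, the most abundant protein of normal urine, had log2 fold changes of -0.01 on HFD (95% CI -0.143 to 0.128) and -0.05 on chow (95% CI -0.189 to 0.082) between the genotypes. The potassium channel gene Kcnj1 (ROMK), which returns potassium to the lumen, and the growth factor gene Egf had intervals within a 1.2-fold change in the same comparisons. The claudin Cldn19, which with Cldn16 forms the paracellular route for calcium and magnesium, had the largest values of the segment, 0.26 on HFD (adjusted p of 0.51) and 0.27 on chow (adjusted p of 0.42), and its second probe set gave 0.09 and 0.14. Cldn16 was at 0.21 on HFD (adjusted p of 0.52) and 0.11 on chow (adjusted p of 0.74), and Cldn10, a claudin for sodium, at -0.03 and -0.08.

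The 5 distal convoluted tubule genes were also uncalled after adjustment, and their median between NiPKO and control mice was -0.04 on HFD and -0.12 on chow. On chow all 5 were below 0, between -0.2 for the calcium-binding protein parvalbumin (Pvalb) and -0.03 for the magnesium channel Trpm6. The 15 further distal convoluted and connecting tubule genes measured, none of them members, did not share this. Their medians were 0.088 on HFD and 0.025 on chow, with values from -0.64 to 0.29 on chow. The tissue kallikrein Klk1 read 13.24, 13.15, 13.19 and 13.23 in chow-fed NiPKO mice, against 13.29, 13.39, 13.33 and 13.27 in chow-fed control mice, a log2 fold change of -0.12 (95% CI -0.219 to -0.017, adjusted p of 0.3). Klk1 has many near-identical paralogs in the mouse, and it is uncertain how far its probe set separates them. The basolateral potassium channel Kcnj10 had log2 fold changes of -0.04 on HFD (95% CI -0.206 to 0.118) and -0.11 on chow (95% CI -0.274 to 0.05). On chow, Fxyd2, the gamma subunit that tunes Na,K-ATPase, had -0.15 (95% CI -0.272 to -0.021, adjusted p of 0.31). Pvalb differed most with diet. It read 7.68, 7.28, 7.19 and 7.03 in HFD-fed NiPKO mice, against 6.58, 6.75, 6.97 and 6.83 in chow-fed NiPKO mice. In control mice it read 7.12, 7.42, 7.34 and 7.57 on HFD, against 6.95, 7.09, 6.91 and 6.96 on chow. Each HFD value exceeded each chow value of the same genotype, and the log2 fold change was 0.52 ± 0.12 in NiPKO mice (SE, adjusted p of 0.079) and 0.39 ± 0.12 in control mice (adjusted p of 0.18).

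In the collecting duct, Muc1 gave the largest genotype difference of all 36 members. It encodes a heavily glycosylated mucin of the apical membrane of distal tubule and collecting duct cells. The values were 8.78, 8.5, 7.93 and 7.97 in chow-fed NiPKO mice, against 7.87, 7.31, 7.2 and 7.41 in chow-fed control mice. On HFD they were 8.27, 8.46, 8.33 and 8.2 in NiPKO mice, against 8.01, 7.64, 7.48 and 7.78 in control mice. On both diets every NiPKO value exceeded every control value. Muc1 rose 1.8-fold on chow, a log2 fold change of 0.85 ± 0.18 (SE, 95% CI 0.472 to 1.22, adjusted p of 0.025), and the value on HFD was 0.59 ± 0.18, or 1.5-fold (adjusted p of 0.18). The difference between the diets, -0.26 (95% CI -0.791 to 0.272, adjusted p of 0.81), was not resolved. The call on chow was lost in a fit of the chow arrays alone (adjusted p of 0.13), with the methods' t-test (0.32), and without chow control replicate 2 (0.084), 3 (0.076) or 4 (0.055) or chow NiPKO replicate 1 (0.059, log2 fold change 0.69) or 2 (0.096). Between HFD-fed and chow-fed mice, Muc1 had log2 fold changes of 0.02 in NiPKO and 0.28 in control mice, with adjusted p-values of 0.98 and 0.55.

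Lists of urothelial and injured tubule markers are given beside Muc1. All 4 measured urothelial genes (Upk1a, Upk1b, Upk2, Upk3a) had log2 fold changes above 0 between the genotypes on both diets, with medians of 0.29 on HFD and 0.23 on chow. After adjustment limma called 0 of 4, against 0.825% of all genes on HFD and 1.28% on chow. At the methods' thresholds 1 of 4 was higher on HFD, against 1.93% of all genes, and none on chow, against 2.33%. Their mean level ranged from 5.96 to 6.66 in HFD-fed NiPKO, 5.86 to 6.74 in chow-fed NiPKO, 5.96 to 6.18 in HFD-fed control and 5.56 to 6.28 in chow-fed control mice. Of 8 markers of injured tubule, limma called 0 on HFD, against 0.825% of all genes, and 1 on chow, against 1.28%. The call on chow was the secreted chaperone clusterin (Clu), which rose by 0.49 ± 0.1 (SE, adjusted p of 0.016). The medians of the 8 were 0.16 on HFD, with values from -0.18 to 0.42, and 0.25 on chow, with values from 0.01 to 0.49. At the methods' thresholds 2 of the 8 were higher on HFD, against 1.93% of all genes, and 3 of the 8 on chow, against 2.33%. Their mean level was 6.91 to 7.24 in HFD-fed NiPKO, 6.77 to 7.15 in chow-fed NiPKO, 6.8 to 7.06 in HFD-fed control and 6.6 to 6.81 in chow-fed control mice. On HFD, where the median of all genes was 0.002, every measured gene of the adipocyte (0.14 to 0.54), leukocyte (0.01 to 0.35) and thin limb and inner medulla (0.05 to 0.25) lists was above 0 as well, which was not so on chow. The part of these cells or states in the Muc1 result was not tested.

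Aqp3, which lets water leave principal cells at their basolateral side, was the tightest collecting duct gene. It read 8.72, 8.73, 8.76 and 8.79 in chow-fed NiPKO mice, against 9.04, 8.97, 9.03 and 9.01 in chow-fed control mice, and fell by 0.26 on the log2 scale (SE 0.05, 95% CI -0.37 to -0.159, adjusted p of 0.012). On HFD it read 8.71, 8.75, 8.79 and 8.59 in NiPKO mice, against 8.75, 8.75, 8.74 and 8.75 in control mice, a log2 fold change of -0.04 (95% CI -0.144 to 0.066). HFD-fed controls were thus at the level of both NiPKO groups, and relative to chow-fed controls Aqp3 fell by 0.27 in them (SE 0.05, 95% CI -0.371 to -0.161, adjusted p of 0.025). Between HFD-fed and chow-fed NiPKO mice it differed by -0.04 (95% CI -0.146 to 0.064). The 2 calls rest on the same 4 chow-fed control arrays and are not independent of each other. The interaction was 0.23 (95% CI 0.076 to 0.374, adjusted p of 0.49), so a difference between the genotype effects on the 2 diets was not called. The genotype call was lost in a fit of the chow arrays alone (adjusted p of 0.077) and held without any single array, at 0.025 to 0.049. The diet call was lost in a fit of the control arrays alone (0.091), with the methods' t-test (0.064), with the replicate number as a block (0.058), and without chow control replicate 1 (0.055), 3 (0.083) or 4 (0.068) or HFD control replicate 1 (0.053), 2 (0.075) or 3 (0.086).

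The 250 bases before the start of Muc1 and Aqp3, the 2 called genes, are shown from RefSeq (GRCm38.p6) in the direction of transcription. Capitals mark the letters TATAAA, the core of a TATA box.
Muc1: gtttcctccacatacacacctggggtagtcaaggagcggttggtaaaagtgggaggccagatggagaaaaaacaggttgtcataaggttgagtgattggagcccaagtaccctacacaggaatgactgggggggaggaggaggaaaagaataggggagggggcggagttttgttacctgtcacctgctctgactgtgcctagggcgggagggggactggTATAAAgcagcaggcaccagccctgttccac
Aqp3: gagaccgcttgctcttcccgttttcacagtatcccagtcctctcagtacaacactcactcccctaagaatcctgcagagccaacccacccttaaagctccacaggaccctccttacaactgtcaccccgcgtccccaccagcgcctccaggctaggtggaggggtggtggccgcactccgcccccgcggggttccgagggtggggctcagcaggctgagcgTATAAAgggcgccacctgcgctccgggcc
Muc1 lies on the plus strand (chr3:89228806-89229055) and Aqp3 on the minus strand (chr4:41098184-41098433), and the TATAAA begins 31 bases before the start of Muc1 and 29 bases before that of Aqp3. The promoter table held 30 of the 36 measured members, all but Napsa, Mep1b, Fut9, Fxyd2, Aqp4 and Hsd11b2, with 35 promoters in all. TATAAA on either strand was found in 6 of the 35 (17.1%), those of Acy3, Aqp3, Avpr2, Kap, Miox and Muc1, against 12.4% of 32851 promoters of the same length. A site of the oestrogen-related receptors, nuclear receptors that PGC-1α coactivates (TNAAGGTCA), was found in 0 of 35, against 1.14% of all promoters. The letters CAAAGTCCA of HNF4 (0.384% of all) and a site of HNF1 (0.371% of all) were likewise in 0 of 35, on either strand. Only TATAAA was matched in the members, so no motifs overlapped.

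The other 7 collecting duct genes had no call after adjustment. Fxyd4, a regulator of Na,K-ATPase, averaged 8.42 ± 0.22 in HFD-fed NiPKO and 7.91 ± 0.28 in HFD-fed control mice (SD, n = 4 each), a log2 fold change of 0.51 ± 0.15 (SE, adjusted p of 0.17), and in control mice it was -0.38 on HFD relative to chow (adjusted p of 0.28). HFD control replicate 1, at 8.34, lay apart from the other 3 arrays of its group, at 7.75 to 7.78, and overlapped the NiPKO values. Foxi1, the forkhead factor of intercalated cells, averaged 9.09 ± 0.12 in chow-fed NiPKO and 8.76 ± 0.18 in chow-fed control mice, a log2 fold change of 0.33 ± 0.13 (SE, adjusted p of 0.29), and 0.25 ± 0.13 on HFD (adjusted p of 0.51). Aqp4, the second basolateral water channel, had log2 fold changes of HFD over chow of 0.75 ± 0.24 in NiPKO mice (SE, adjusted p of 0.18), where the groups did not overlap, and 0.57 ± 0.24 in control mice (adjusted p of 0.32), where they did. The vasopressin-regulated water channel Aqp2 ranged from 8.93 to 9.18 in HFD-fed NiPKO, 8.39 to 9.62 in chow-fed NiPKO, 8.62 to 9.3 in HFD-fed control and 8.88 to 9.59 in chow-fed control mice, so that its confidence interval between NiPKO and control mice on chow ran from -0.632 to 0.26. The intervals of the vasopressin receptor gene Avpr2 between the genotypes (-0.149 to 0.415 on HFD, -0.334 to 0.23 on chow) were also wider than a 1.2-fold change. Hsd11b2, which shields the mineralocorticoid receptor from glucocorticoids, had the narrower intervals of -0.12 to 0.227 on HFD and -0.106 to 0.242 on chow, and Aqp6, a channel of intercalated cell vesicles, had log2 fold changes of 0.01 on both diets.

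To follow each segment over the 4 groups, a shift was computed for every array as the median, over the members of a segment, of the value minus the gene's mean over all arrays. The proximal tubule shift was -0.02 to 0.03 in HFD-fed NiPKO, 0.03 to 0.07 in chow-fed NiPKO, -0.15 to -0.01 in HFD-fed control and 0 to 0.04 in chow-fed control mice. HFD-fed controls were the low group, and replicate 1 of that group overlapped HFD-fed NiPKO mice. The distal convoluted tubule shift was -0.07 to 0.05 in HFD-fed NiPKO, -0.14 to -0.05 in chow-fed NiPKO, 0 to 0.07 in HFD-fed control and -0.06 to 0.09 in chow-fed control mice, so that chow-fed NiPKO mice were low with overlap. For the thick ascending limb and the collecting duct all 4 groups overlapped, and the collecting duct shift ranged from -0.01 to 0.18 in HFD-fed NiPKO, -0.09 to 0.25 in chow-fed NiPKO, -0.17 to 0.17 in HFD-fed control and -0.22 to 0.11 in chow-fed control mice. These shifts are descriptions of a chosen list and carry no test.

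**Figure D4:**
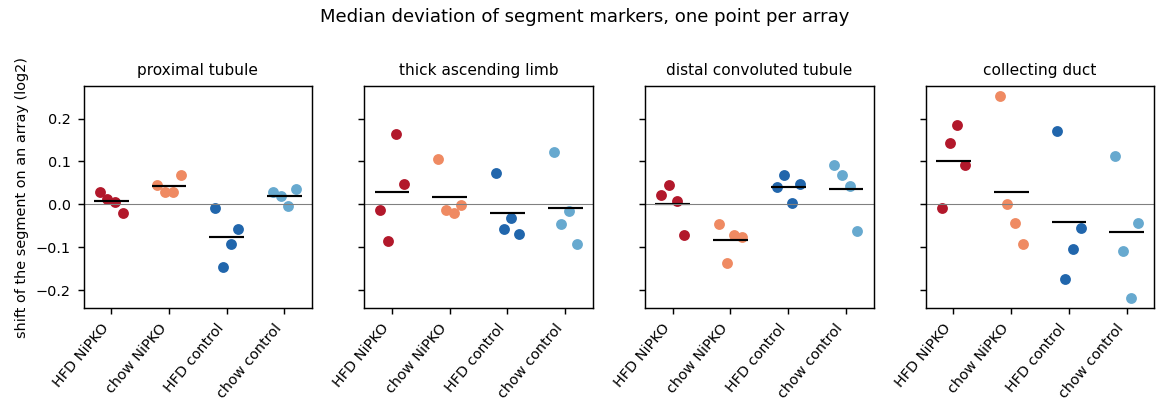
Shift of each segment on each array (1 point per array, log2 scale), with the group mean as a bar; the 4 panels share 1 axis. The proximal tubule of HFD-fed controls lies between -0.15 and -0.01, and the collecting duct shows the widest spread within groups, up to 0.25 in chow-fed NiPKO mice.

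The spread within groups differed among the segments. The median SD within groups was 0.096 for proximal tubule, 0.105 for thick ascending limb, 0.107 for distal convoluted tubule and 0.209 for collecting duct genes, against 0.122 for all genes. It was smallest for Klk1 (0.043), Miox, an oxygenase of inositol breakdown (0.044), Hnf4a (0.044) and Lrp2 (0.046), and largest for Aqp4 (0.392), Aqp2 (0.339) and Muc1 (0.284). The signal levels differed as well. Group means were 13.2 to 13.33 for Klk1 and 7.73 to 8.69 for Aqp4, and the highest value of any probe set was 13.81. Aqp3, at group means of 8.71 to 9.02, had an SD of 0.049. The part of the signal level in these spreads was not tested. The collecting duct genes also deviated together. Over the 16 arrays, deviations from the group means had a median correlation of 0.431 over 36 pairs of collecting duct genes and 0.397 over 15 pairs of thick ascending limb genes, against 0.055 over 120 pairs of proximal tubule genes and -0.002 over 10 pairs of distal convoluted tubule genes; the points share arrays, and the values are given as a description. The closest pairs were Lrp2 with Cubn (0.886), Aqp2 with Muc1 (0.883), Aqp4 with Muc1 (0.877) and Cldn19 with Kcnj1 (0.854). Thick ascending limb genes also deviated with collecting duct genes, at a median of 0.248 over 54 pairs (-0.313 to 0.831). Kcnj1 reached 0.831 with Avpr2 and 0.82 with Muc1. The other pairings of different segments had medians from -0.078 to 0.093. The median correlation of Muc1 with the other 8 collecting duct genes was 0.674, that of Aqp3 was 0.013 and that of Foxi1 was -0.295. Chow control replicate 1 and HFD control replicate 1 each had 8 of the 9 collecting duct genes above their group mean, and HFD NiPKO replicates 2 and 3 and chow NiPKO replicate 1 each had 7 of 9. The mean level of 7 measured genes of thin limb and inner medulla ranged from 6.85 to 7.19 in HFD-fed NiPKO, 6.67 to 7.29 in chow-fed NiPKO, 6.76 to 7.2 in HFD-fed control and 6.81 to 7.14 in chow-fed control mice. How much medulla each sample held was not tested.

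**Figure D5:**
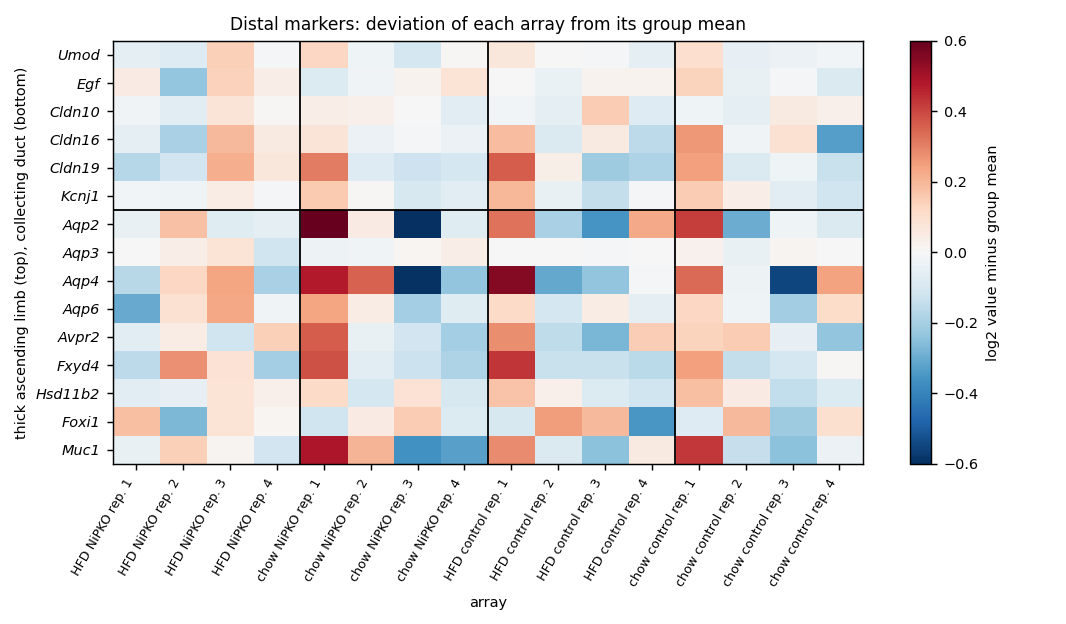
Value minus group mean (log2 scale, colour ends at -0.6 and 0.6) for the 6 thick ascending limb genes (top) and the 9 collecting duct genes (bottom) on each of the 16 arrays, ordered by group. Most collecting duct genes lie above the group mean on replicate 1 of chow-fed NiPKO (7 of 9), HFD-fed control (8 of 9) and chow-fed control mice (8 of 9), while Aqp3 stays pale and Foxi1 departs from the others.

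Further genes of these segments, the connecting tubule, and the thin limb and inner medulla, none of them members, were tested in the same fit (limma). Of 98 measured, 1 rose and 2 fell in HFD-fed NiPKO relative to HFD-fed control mice, against 0.825% of all genes called, and 2 fell in chow-fed NiPKO relative to chow-fed control mice, against 1.28%. With HFD, 1 rose in NiPKO mice, against 0.261% of all genes, and at an adjusted p under 0.05 none was called in control mice, against 0.564%, or in the interaction, against 0%. The creatine kinase Ckmt1 fell by 0.74 ± 0.11 on HFD (SE, adjusted p of 0.0041) and by 0.64 ± 0.11 on chow (adjusted p of 0.0064); it is a mitochondrial enzyme listed with the distal convoluted tubule. Glucose-6-phosphatase (G6pc), the last step of proximal glucose production, fell by 0.37 ± 0.08 in HFD-fed NiPKO relative to HFD-fed control mice (adjusted p of 0.044), and the calcium-sensing receptor Casr of the thick ascending limb rose by 0.41 ± 0.08 (adjusted p of 0.028). On chow, Wfdc15b of the thick ascending limb fell by 0.4 ± 0.09 (adjusted p of 0.038). The dicarboxylate transporter Slc13a3 of the proximal tubule rose by 0.38 ± 0.08 with HFD in NiPKO mice (adjusted p of 0.049), while in control mice it was at 0.35 ± 0.08 (adjusted p of 0.053). At the methods' thresholds 11 further genes were higher and 2 lower between HFD-fed NiPKO and HFD-fed control mice, against 1.93% and 1.79% of all genes, and 4 were higher and 11 lower between HFD-fed and chow-fed control mice, against 2.3% and 2.34%; both comparisons use the HFD-fed controls. Of 17 intercalated cell genes, 5 were higher in the first of these comparisons, against 1.93% of all genes, and 4 lower in the second, against 2.34%, among them the chloride and bicarbonate exchanger Slc26a4 at 0.35 ± 0.11 (adjusted p of 0.22) and -0.28 ± 0.11 (adjusted p of 0.29).

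Markers of other cells in whole kidney were followed for comparison. No podocyte, endothelial, fibroblast, leukocyte, adipocyte, adrenal or urothelial gene was called in any comparison (limma, adjusted p). Of all genes, 0% to 1.28% were called, depending on the comparison. Of 6 adipocyte genes, 5 were higher at the methods' thresholds in HFD-fed relative to chow-fed NiPKO mice, against 2.26% of all genes, and their mean level was 6.16 to 6.68 in HFD-fed NiPKO, 5.84 to 5.95 in chow-fed NiPKO, 5.78 to 6.26 in HFD-fed control and 5.85 to 6.08 in chow-fed control mice; Pvalb and Aqp4 passed the same thresholds there, and the part of fat tissue in those values was not tested.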

How the data were processed

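The log2 values that the authors deposited cover 41345 probe sets on each of 16 whole-kidney arrays and were already normalized. Partek is named in the submitters' processing notes; the sources used here do not say how the signals were background-corrected and normalized. Signal over background is unknown, and precision is limited by the number of arrays. Gene symbols came from the platform annotation, probe sets without exactly 1 symbol were not used, and each gene was read from the brightest of its probe sets, without a filter, giving 22180 genes. A linear model of the 4 group means was fitted with limma 3.58.1 in R 4.3.3, and p-values were adjusted by Benjamini-Hochberg over all genes. The comparisons were NiPKO against control on each diet, HFD against chow in each genotype, and their interaction. Genes were called at an adjusted p under 0.05 and, separately, at the thresholds of the methods (fold change over 1.2 at an unadjusted p under 0.05). "Rose" and "fell" are used for adjusted calls alone. The fit was tested on simulated data.

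The members, the further lists and the tests were chosen with earlier results of these data known, among them the value of Muc1. Values of every array are given for members called after adjustment and, to reach at least 6 members, for those next in unadjusted p, here Mep1b, Pvalb, Ass1 and Dpep1; Amn, Klk1 and Hnf4a were added after their values were seen. From each further list the 3 genes with the smallest p in a comparison could be named; the urothelial genes and Clu were named after their values were seen. The alternatives were fits of 2 groups alone, quantile normalization, median centring, only genes brighter than the median gene, the methods' t-test, a robust prior with a mean-variance trend, weighted arrays, averaged probe sets, a block for the replicate number, and omission of each array in turn.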

Additional observations from a re-analysis of the deposited data

Results flagged for a closer look

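In each group of 4 arrays, the highest and the lowest value were set against the others for the 36 members and the 4 segment shifts, and 6 of 160 such sets held an array farther off than Dixon's critical value for 4 samples allows. Chance alone marks about 1 in 20 sets. HFD NiPKO replicate 2 was high for the water channel Aqp2, at 9.18 against 8.93 to 8.96 on the other 3 arrays. Chow NiPKO replicate 1 was high for the claudin Cldn19, at 8.82 against 8.39 to 8.44, and for the shift of the thick ascending limb, at 0.11 against -0.02 to 0. HFD control replicate 1 was high for Fxyd4, at 8.34 against 7.75 to 7.78, and HFD control replicate 4 was high for Kap, at 12.9 against 12.73 to 12.75. Chow control replicate 3 was low for Miox, at 13 against 13.11 to 13.12.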

How the results depend on the processing

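No gene with a call after adjustment changed direction. The counts of members called after adjustment were small and moved with the settings. Between chow-fed NiPKO and chow-fed control mice, the 2 calls became 0 in a fit of these groups alone and 1 by the methods' t-test. Between the genotypes on HFD, 0 became 1 under a robust prior with a mean-variance trend. Between HFD-fed and chow-fed control mice, 1 became 0 in a fit of these groups alone, with the methods' t-test and with the replicate block, 2 after median centring, 3 among genes brighter than the median gene, and 4 with the trend and robust prior. Between HFD-fed and chow-fed NiPKO mice, 0 became 1 among the brighter genes and with the trend and robust prior. At the methods' thresholds, the 8 members between HFD-fed and chow-fed control mice became 5 with the t-test. The proximal tubule median between HFD-fed and chow-fed NiPKO mice, -0.028, became -0.053 after quantile normalization and when probe sets were averaged.

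When single arrays were left out, the adjusted count ranged from 1 to 2 between the genotypes on chow and from 0 to 2 between the diets in control mice, and stayed at 0 in the other comparisons. The count at the methods' thresholds ranged from 3 to 9 between the genotypes on HFD (9 without HFD control replicate 1), 1 to 3 on chow (1 without chow control replicate 3), 3 to 5 between the diets in NiPKO mice (5 without chow NiPKO replicate 1), 5 to 8 in control mice (5 without chow control replicate 3 or HFD control replicate 2), and 0 to 2 in the interaction. The proximal tubule median between the genotypes on chow ranged from 0.013 to 0.06. Between the diets in NiPKO mice, the distal convoluted tubule median ranged from 0.045 to 0.101 and the collecting duct median from -0.029 to 0.182. In the interaction these ranged from 0.066 to 0.129 and from 0.014 to 0.225. Small medians changed sign: that of the thick ascending limb ranged from -0.05 to 0.007 between the genotypes on chow, -0.025 to 0.065 between the diets in NiPKO mice and -0.07 to 0.021 in control mice, and in control mice that of the distal convoluted tubule from -0.058 to 0.004 and that of the collecting duct from -0.079 to 0.109. Members above 0 in the interaction numbered 28 of 36, 32 after median centring and 26 after quantile normalization, and between the genotypes on chow 19, 17 and 24. Over all genes, deviations from the group means correlated at -0.107 to 0.166 in the same-number pairs (median 0.0165), with 3 of 24 over 0.1. In the other pairs they correlated at -0.164 to 0.139 (median -0.0015), with 3 of 72 over 0.1, a smaller share. Of 16 arrays, 7 correlated best with their own number. Among the members, replicate 1 of 3 groups was high in the collecting duct and, at shifts of 0.106, 0.073 and 0.121, in the thick ascending limb, while replicate 1 of HFD-fed NiPKO mice had 1 of 9 collecting duct genes above its group mean. Since not every pair was over 0.1 and no source ties the numbers, they were not taken to pair samples. Whether arrays of equal number share a batch was not tested. The cause of these changes was not tested, beyond the smaller number of arrays or genes that some of the settings use.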
